A study of Mus musculus with 6 samples.

Results

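The CCN matricellular family is a set of secreted, cysteine-rich proteins named after its founding members Cyr61, Ctgf and Nov. The genes described are the 5 whose symbols (Cyr61, Ctgf, Nov, Wisp1 and Wisp2) were looked up in the expression table, out of 23361 symbols in all. Wisp3, the remaining gene of the family of 6, was not among those symbols and is given beside them. RNA-seq was carried out on mouse small-cell lung cancer (SCLC) cells in 2 groups of 3 libraries. The question of the comparison was what an active form of TAZ, a transcriptional co-activator of the Hippo pathway encoded by Wwtr1, changes in these cells.

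The SMC-TAZ4SA cells carried a retroviral vector for TAZ4SA, a constitutively active TAZ mutant, and the SMC-Ctrl cells carried the control vector. SMC stands for the SCLC metastasizing cell, which the study sorted from lung tumours as NCAM-high, CD44-low or negative cells and kept in culture. The tumours came from mice of mixed background in which Rb1 and Trp53 had been deleted in the lung with a Cre adenovirus, so both groups lack both tumour suppressors. According to the study's methods, infected cells were selected with puromycin, and no further treatment is given in the labels. The cells are cultured tumour cells, and whether the line is 1 clone is not given in the sources used here. The labels do not say whether a group's 3 libraries are separate cultures, and p-values therefore cover only library-to-library spread, possibly technical. The study's data statement describes this deposit as another comparison, SMC against non-SMC, whereas the sample titles and the columns of the table give TAZ4SA against control, and the titles were followed.

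Values are FPKM, that is fragment counts scaled by transcript length and by the size of the library, so that levels of different genes can be set side by side. The low values gave relative depths of 0.713 to 0.964 for the SMC-TAZ4SA libraries and 0.968 to 1.09 for the SMC-Ctrl libraries, where the depth of SMC-Ctrl replicate 1 is 1. Wwtr1 itself was read at 31.7, 36.0 and 35.8 FPKM in SMC-TAZ4SA libraries, against 0.162, 0.105 and 0.162 FPKM in SMC-Ctrl libraries. The groups did not overlap, in the direction of their labels. The species of the TAZ4SA construct is not given in the sources used here, so transcripts of the vector and of the endogenous gene cannot be told apart. Of the genes that marked neuroendocrine SCLC, Chga, a granin gene, was at 94.2 ± 2.25 FPKM in SMC-Ctrl cells and Ncam1, which encodes the sorted NCAM antigen, at 21.4 ± 1.18 FPKM (SD, n = 3 libraries each).

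CCN proteins are deposited in the extracellular matrix, where they act as adaptors rather than as structural fibres. After a signal peptide the typical member has an insulin-like growth factor binding protein (IGFBP) module, a von Willebrand factor type C module, a thrombospondin type 1 module and a C-terminal cystine-knot module, and with these it binds integrins, heparan sulphate proteoglycans and growth factors of the TGF-beta, BMP and VEGF groups. Cyr61 and Ctgf are among the best-known target genes of YAP and TAZ, which bind DNA through TEAD transcription factors. Nov was found as a gene overexpressed in nephroblastoma, and the WISP genes were named as WNT1-inducible secreted proteins.

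In the GENCODE annotation of GRCm38, the assembly that the name mm10 stands for, the genes lie on 4 chromosomes and have 5 exons each. Cyr61 (Ccn1) is at chr3:145646976-145649981 on the minus strand and encodes 379 codons. Ctgf (Ccn2) is at chr10:24595442-24598683 on the plus strand with 348 codons, and the non-coding transcript Gm15270 overlaps it on the opposite strand. Nov (Ccn3), at chr15:54745702-54754039, and Wisp1 (Ccn4), at chr15:66891320-66923201, share a chromosome and the plus strand, with 354 and 367 codons. Wisp2 (Ccn5), at chr2:163820861-163833146 on the plus strand, is the shortest with 251 codons. It has 4 coding exons where the others have 5, and its protein is the member that lacks the C-terminal cystine-knot module. Wisp3 (Ccn6) is at chr10:39150970-39163794 on the minus strand with 354 codons, and Tube1 overlaps it on the plus strand.

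RefSeq promoters (GRCm38.p6) were at hand for Cyr61, which was high in SMC-TAZ4SA cells, and for Wisp3, which was low there, and both are shown because the comparison turns on a co-activator that works through TEAD sites. The 250 bases before the start site are printed, at chr3:145649986-145650235 for Cyr61 and at chr10:39163795-39164044 for Wisp3, 5′ to 3′ on the minus strand. In Cyr61 the capitals mark the TEAD core GGAATG, read here on the other strand, and the TATA box TATAAA. In Wisp3 they mark the SMAD sequence CAGAC.
Cyr61: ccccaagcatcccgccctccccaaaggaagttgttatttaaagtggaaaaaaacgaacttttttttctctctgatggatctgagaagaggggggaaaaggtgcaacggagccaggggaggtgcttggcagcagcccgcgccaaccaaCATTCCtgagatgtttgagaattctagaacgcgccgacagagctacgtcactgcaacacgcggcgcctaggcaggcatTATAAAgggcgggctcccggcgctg
Wisp3: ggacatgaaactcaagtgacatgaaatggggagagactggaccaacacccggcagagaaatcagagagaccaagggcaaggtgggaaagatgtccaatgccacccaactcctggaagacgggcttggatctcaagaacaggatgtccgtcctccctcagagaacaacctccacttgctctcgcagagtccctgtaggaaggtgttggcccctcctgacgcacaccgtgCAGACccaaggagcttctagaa
Counted back from the start site, the TEAD core of Cyr61 lies at -103 to -98 and its TATA box at -25 to -20. The CAGAC of Wisp3 lies at -22 to -18. Each motif was searched on both strands in 300-base windows, which add the 50 bases from the start site onwards, and none of the matches overlapped another. GGAATG stood in 14.7% of 32851 RefSeq promoters, TATAAA in 13.6% and CAGAC in 49.6%, and the windows of both genes held a further CAGAC after the start site. The AP-1 sequence TGANTCA, found in 7.81% of promoters, and the CArG box, found in 1.63%, were not in the letters of either window. A match is a description of the sequence and not a bound site.

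The family changed members between the groups. Ctgf, Cyr61 and Wisp1 were the CCN transcripts of SMC-TAZ4SA cells, and Nov that of SMC-Ctrl cells. Across all genes, 80.3% of the 12141 tested passed the test (limma on log2(FPKM + 1), Benjamini-Hochberg adjusted p under 0.05), 40.7% as higher and 39.7% as lower in SMC-TAZ4SA, and the groups did not overlap for 82.4%. With all libraries scaled to the same total, the calls were 3984 higher and 5883 lower, against 4939 and 4815 as deposited. Against that background, 4 of the 5 members were tested, 3 of them were called higher and 1 lower, and Wisp2 was below the filter of 1 FPKM in at least 3 libraries. All 4 passed that filter through the group in which they were high, so a difference was built into their selection, and the size of each is given with its rank among all genes. The libraries are bulk samples, in which fewer cells that express a gene and less RNA per cell cannot be told apart.

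**Figure D1:**
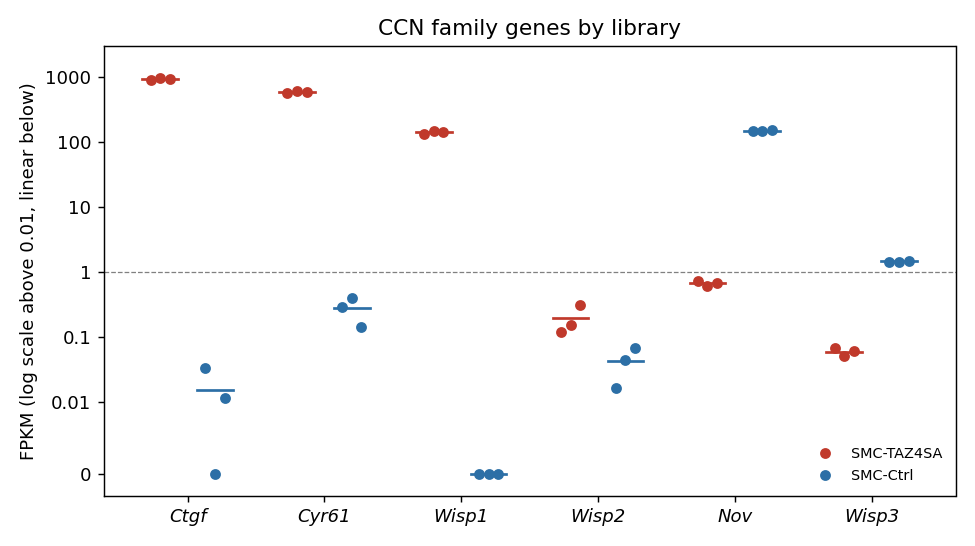
FPKM of the 6 CCN family genes in each library (points, with the mean of 3 libraries as a line) in SMC-TAZ4SA and SMC-Ctrl cells, on an axis that is logarithmic above 0.01 FPKM and linear below; the dashed line is the 1 FPKM of the filter. Ctgf, Cyr61 and Wisp1 sit at 132.5 FPKM or more in SMC-TAZ4SA libraries and under 1 FPKM in SMC-Ctrl libraries, and Nov the other way round.

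Ctgf, connective tissue growth factor, a matrix protein known for its part in fibrosis, was the most abundant member. It was at 898, 967 and 930.1 FPKM in SMC-TAZ4SA libraries, against 0.0336, 0 and 0.0116 FPKM in SMC-Ctrl libraries. The 3 SMC-TAZ4SA libraries lay close together and far above the others. The difference was 9.84 on the log2(FPKM + 1) scale (SE 0.0566, adjusted p = 3.03e-11), and Ctgf ranked 2 among the genes that rose. It was number 24, 11 and 14 by FPKM among the symbols of the SMC-TAZ4SA libraries 1, 2 and 3. Divided by its smallest value and corrected for depth, the SMC-Ctrl values of Ctgf came to 3.0, 0 and 1, so its level in SMC-Ctrl cells rests on a few fragments and no ratio is given.

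Cyr61, an angiogenic and adhesive CCN protein that is an immediate-early gene in fibroblasts, showed the same form at a lower level. Its FPKM was 571, 618 and 587 in SMC-TAZ4SA libraries, against 0.288, 0.390 and 0.141 in SMC-Ctrl libraries. Unlike Ctgf, it was read in every SMC-Ctrl library. Mean FPKM was 592 ± 23.6 in SMC-TAZ4SA cells and 0.273 ± 0.125 in SMC-Ctrl cells (SD, n = 3 each), a 2168-fold difference. That fold is imprecise, because the SMC-Ctrl values are low and their SD is large beside their mean. The difference of log2(FPKM + 1) was 8.87 (SE 0.0820, adjusted p = 8.38e-11), which ranked 7 among the rises. Within the SMC-TAZ4SA libraries the ratio of Ctgf to Cyr61 in FPKM was 1.57, 1.57 and 1.58 (mean 1.57 ± 0.00928, SD). Each gene varied little over these 3 libraries, and whether the pair varies together was not tested.

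Wisp1, which was described as a target of WNT1 and beta-catenin in mouse mammary cells, was next to Cyr61 by level in SMC-TAZ4SA cells. It was at 133, 146 and 142 FPKM in SMC-TAZ4SA libraries and listed at 0 in all 3 SMC-Ctrl libraries. No fold is given against a group listed at 0. The difference of log2(FPKM + 1) was 7.14 (SE 0.0604, adjusted p = 6.42e-11), and Wisp1 ranked 23 among the rises. The ratio of Cyr61 to Wisp1 was 4.31, 4.23 and 4.14 in the SMC-TAZ4SA libraries (mean 4.23 ± 0.0862, SD).

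Nov, a member known to restrain proliferation in several cell types and to be expressed in neural and adrenal tissue, went the other way. It was at 0.712, 0.607 and 0.686 FPKM in SMC-TAZ4SA libraries, against 146, 146 and 154 FPKM in SMC-Ctrl libraries. Every SMC-TAZ4SA library was under 1 FPKM, and the SMC-Ctrl libraries lay close together. The mean FPKM was 0.668 ± 0.0545 in SMC-TAZ4SA cells and 148 ± 4.45 in SMC-Ctrl cells (SD, n = 3 each), which is 222-fold lower, and the difference of log2(FPKM + 1) was -6.49 (SE 0.0579, adjusted p = 7.33e-11). Nov ranked 5 among the genes that fell. By FPKM it was number 11424, 11600 and 11505 among the symbols of the SMC-TAZ4SA libraries 1 to 3, and number 209, 225 and 211 in the SMC-Ctrl libraries.

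Wisp2 was hardly read in either group. Its FPKM was 0.117, 0.152 and 0.314 in SMC-TAZ4SA libraries, against 0.0161, 0.0445 and 0.0666 in SMC-Ctrl libraries. The groups did not overlap, but every value was under 1 FPKM. Expressed as multiples of its smallest value and corrected for depth, these are 6.99, 7.98 and 13.9 in SMC-TAZ4SA libraries and 1, 3.01 and 3.99 in SMC-Ctrl libraries, each within 0.106 of a whole number, so the comparison rests on a small number of fragments. In a fit of 17987 genes without the filter, the difference of log2(FPKM + 1) was 0.19 (SE 0.0619, adjusted p = 0.0319).

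Wisp3, known from the skeletal disorder that its loss causes in humans, was low in both groups. It was at 0.0666, 0.0508 and 0.0596 FPKM in SMC-TAZ4SA libraries, against 1.44, 1.41 and 1.49 FPKM in SMC-Ctrl libraries. Its mean was 24.5-fold lower in SMC-TAZ4SA cells, a ratio that rests on values of 0.0666 FPKM or less there and is uncertain. The difference of log2(FPKM + 1) was -1.21 (SE 0.0439, adjusted p = 4.83e-08). Wisp3 passed the filter only through SMC-Ctrl libraries, so this difference too was built into its selection. Tube1, the epsilon-tubulin gene that overlaps Wisp3 on the other strand, was at 2.79, 2.77 and 2.36 FPKM in SMC-TAZ4SA libraries, against 8.35, 8.42 and 9.13 FPKM in SMC-Ctrl libraries. It was lower as well (difference of log2(FPKM + 1) -1.41, SE 0.0727, adjusted p = 4.44e-07). Whether the counting used strand is not given in the sources used here, so reads of the pair cannot be told apart where they overlap, and the level of Wisp3 is uncertain.

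Ordered by FPKM, SMC-TAZ4SA cells had Ctgf, Cyr61, Wisp1, Nov, Wisp2 and Wisp3, and the ranges of neighbours in this order did not overlap. In SMC-Ctrl cells the order was Nov, Wisp3, Cyr61, Wisp2, Ctgf and Wisp1, in which the ranges of Wisp2 and Ctgf overlapped, and Ctgf shared the value 0 with Wisp1 in SMC-Ctrl replicate 2. Summed over the 6 genes, CCN transcripts came to 1665 ± 64.9 FPKM in SMC-TAZ4SA cells and 150.3 ± 4.39 FPKM in SMC-Ctrl cells (SD, n = 3 each). In SMC-TAZ4SA cells Ctgf made up 56.0% ± 0.0969 of that sum, Cyr61 35.6% ± 0.169, Wisp1 8.42% ± 0.138 and Nov 0.0403%. In SMC-Ctrl cells Nov made up 98.8% ± 0.0759 and Wisp3 0.962%, with Cyr61 at 0.183%.

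**Figure D2:**
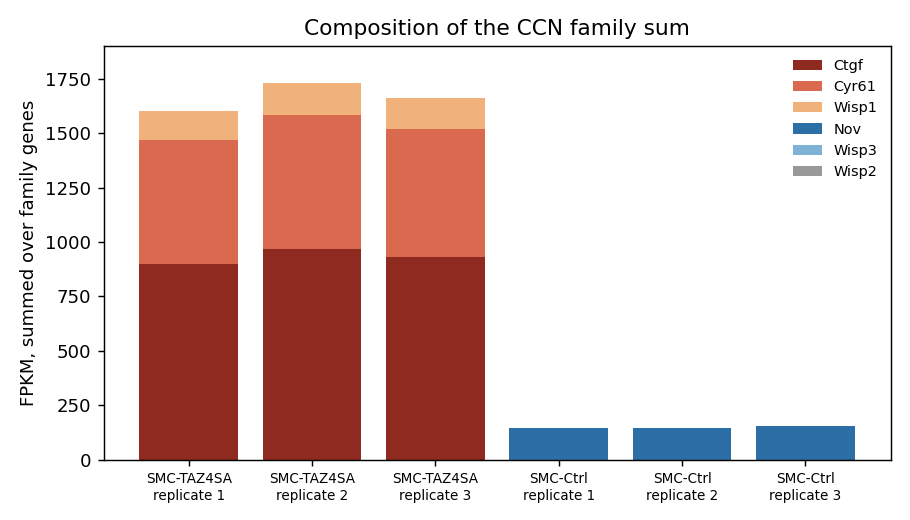
FPKM summed over the 6 CCN family genes in each library, stacked by gene, for SMC-TAZ4SA and SMC-Ctrl replicates. The SMC-TAZ4SA bars reach 1602 to 1732 FPKM and consist of Ctgf, Cyr61 and Wisp1, and the SMC-Ctrl bars reach 147.4 to 155.3 FPKM and consist almost wholly of Nov.

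The genes most like each member over the 6 libraries were taken as those with the smallest root mean square difference of log2(FPKM + 1), a measure of level and pattern together that is dominated by the gap between the groups. For Cyr61 they included Msn (0.146), which encodes the actin linker moesin, the proteoglycan gene Bgn (0.334), the matricellular gene Sparc (0.365) and smooth muscle actin Acta2 (0.432). For Ctgf they were Acta2 (0.181), Bgn (0.233), the galectin gene Lgals1 (0.236), Vim (0.456), which encodes vimentin, and Msn (0.499). Cyr61 and Ctgf themselves were 0.523 apart. Wisp1 was nearest to the annexin gene Anxa8 (0.128), the collagen gene Col5a1 (0.134), the secreted protease gene Htra1 (0.143), the collagen crosslinking enzyme gene Loxl2 (0.150) and the chemokine gene Cxcl12 (0.160). Nov was nearest to Calca (0.252), which encodes calcitonin and its related peptide, to Ddc (0.282), which encodes aromatic amino acid decarboxylase, and then to Clca4 (0.501), the granin gene Chga (0.525) and Aldh1a7 (0.543). Calca was at 0.754 ± 0.318 FPKM in SMC-TAZ4SA cells and 123 ± 13.2 FPKM in SMC-Ctrl cells (SD, n = 3 each). For Wisp3 they were Cped1 (0.0466), D130043K22Rik (0.0520), Tmem255a (0.0551), Dlec1 (0.0568) and Pcdhb4 (0.0577), all of them near 1 FPKM in SMC-Ctrl cells as Wisp3 was.

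The nearest protein-coding genes on each side of a member moved less than the member did, where both were tested, for Ctgf, Cyr61, Wisp1 and Nov. Beside Cyr61, Ddah1, which encodes an enzyme that degrades methylarginines and lies 108.694 kb away, was at 65.8 ± 2.43 FPKM in SMC-TAZ4SA cells and 0.834 ± 0.113 FPKM in SMC-Ctrl cells (SD, n = 3 each), a difference of log2(FPKM + 1) of 5.19 (adjusted p = 2.92e-10). Znhit6 on its other side differed by 1.18 (adjusted p = 1.78e-05). The neighbours of Ctgf went in opposite directions, with Moxd1 higher by 1.92 on that scale (adjusted p = 5.62e-08) and Enpp1, 39.231 kb away, lower in SMC-TAZ4SA cells (difference -0.92, adjusted p = 2.24e-05). Ddah1 and Moxd1 were under 1 FPKM in every SMC-Ctrl library. Both passed the filter only through SMC-TAZ4SA libraries, so that they were higher was built into their selection. Ndrg1, only 6.117 kb from Wisp1, was at 68.0 ± 2.50 FPKM in SMC-TAZ4SA cells and 51.2 ± 2.90 FPKM in SMC-Ctrl cells, a difference of 0.40 (adjusted p = 6.64e-04). Mal2 beside Nov was lower (difference -1.60, adjusted p = 1.98e-07). Beside Wisp3, Fam229b differed by 0.58 (adjusted p = 0.0196) and Fyn, which encodes a Src family kinase, by -0.23 (adjusted p = 0.00936). Ada, the adenosine deaminase gene next to Wisp2, did not pass (0.31, adjusted p = 0.0587), but did without SMC-TAZ4SA replicate 2 (0.0420) or 3 (0.0302), and Fam229b lost its call without SMC-Ctrl replicate 1 (0.0722) or 3 (0.0636). Tg, Enpp2 and Kcnk15, next to Wisp1, Nov and Wisp2, were below the filter.

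**Figure D3:**
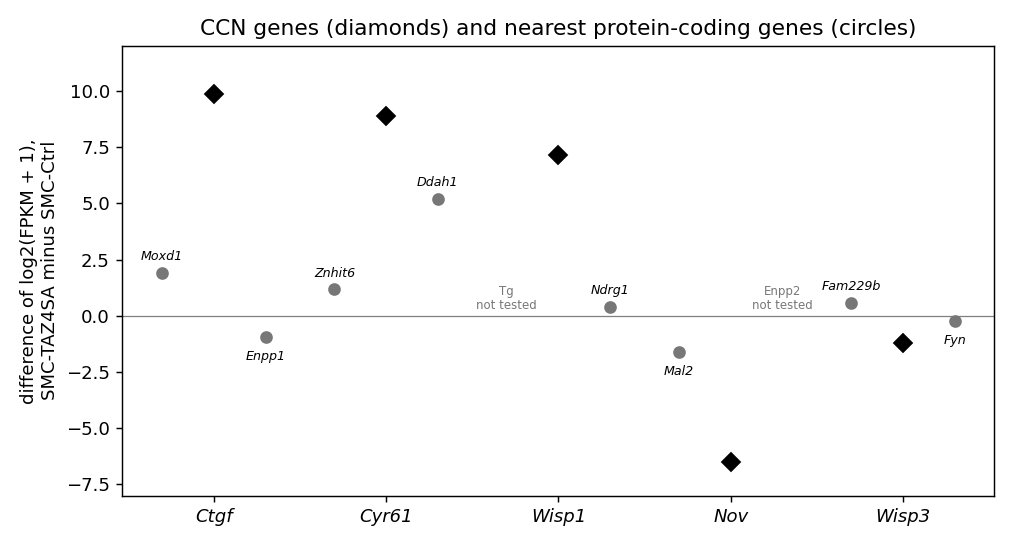
Difference of log2(FPKM + 1), SMC-TAZ4SA minus SMC-Ctrl, of 5 CCN genes (diamonds) and of the nearest protein-coding gene on each side (circles), drawn left and right of each diamond and not to genomic scale. Of the neighbours drawn, Ddah1 beside Cyr61 is the farthest from 0, at 5.19. Ddah1 and Moxd1 passed the filter only through SMC-TAZ4SA libraries, which built their direction into their selection.

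Regulators of the CCN genes, TAZ and its TEAD partners among them, were described from a list of 21 genes, all of which were tested. In this list 11 were higher and 9 lower, against 40.7% higher and 39.7% lower over all tested genes, while Smad2 did not pass. The 11 include Wwtr1, the gene that was introduced, and 4 of the 21 passed the filter only through SMC-TAZ4SA libraries. The median difference was 0.62 on the log2(FPKM + 1) scale against 0.02 over all tested genes. The 4 genes for TEAD factors, the DNA-binding partners of TAZ, were all higher. Tead2 was at 81.8 ± 5.48 FPKM in SMC-TAZ4SA cells and 32.2 ± 1.87 FPKM in SMC-Ctrl cells, and Tead4 at 4.64 ± 0.743 FPKM in SMC-TAZ4SA cells and 0.00860 ± 0.00886 FPKM in SMC-Ctrl cells (SD, n = 3 each). Tead1 and Tead3, already expressed in SMC-Ctrl cells, differed by 0.62 (adjusted p = 0.00210) and 0.88 (adjusted p = 6.99e-06). Yap1, which encodes the paralogue of TAZ, was at 33.6 ± 0.334 FPKM in SMC-TAZ4SA cells and 6.12 ± 0.536 FPKM in SMC-Ctrl cells.

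The AP-1 and TGF-beta branches of the list were split. Fosl1, which encodes the AP-1 subunit FRA1, was at 34.1 ± 2.49 FPKM in SMC-TAZ4SA cells and 0.101 ± 0.0270 FPKM in SMC-Ctrl cells (SD, n = 3 each). Fos, another AP-1 subunit gene, was at 2.09 ± 0.438 FPKM in SMC-TAZ4SA cells and 25.4 ± 8.35 FPKM in SMC-Ctrl cells. The immediate-early gene Egr1 was lower too, at 37.6 to 44.2 FPKM in SMC-TAZ4SA libraries. It varied widely in SMC-Ctrl libraries, from 79.6 to 170 FPKM, and the difference of log2(FPKM + 1) was -1.54 (SE 0.243). Of the TGF-beta receptor genes, Tgfbr2 was higher by 3.80 on that scale, and Tgfbr1 was lower (difference -1.42).

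Receptors for CCN proteins, mostly integrins, were represented by 16 genes, of which 12 were tested: 9 were higher and 2 lower, while Lrp6 did not pass. The median difference was 2.53, and 4 of the 12 passed the filter only through SMC-TAZ4SA libraries. Across all tested genes, 40.7% were called higher and 39.7% lower. Itga5, the fibronectin receptor alpha chain gene, was at 116, 123 and 119.9 FPKM in SMC-TAZ4SA libraries and listed at 0 in all SMC-Ctrl libraries. Its partner Itgb1 was expressed in both groups and was also called higher (difference of log2(FPKM + 1) 2.18). Itgb1 was at 356 ± 7.52 FPKM in SMC-TAZ4SA cells and 77.5 ± 3.73 FPKM in SMC-Ctrl cells (SD, n = 3 each). The alpha-v chain gene Itgav was at 57.9 ± 6.18 FPKM in SMC-TAZ4SA cells and 3.96 ± 0.257 FPKM in SMC-Ctrl cells (SD, n = 3 each), and its beta chain genes Itgb5 and Itgb3 were higher by 4.15 and 3.35 on the log2(FPKM + 1) scale. The laminin receptor chain gene Itga6 was at 12.6 ± 1.84 FPKM in SMC-TAZ4SA cells and 29.5 ± 0.649 FPKM in SMC-Ctrl cells, and the growth factor receptor gene Fgfr2 was the other that fell (difference -0.98).

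Of 12 genes for binding partners of CCN proteins, 8 were tested and all 8 were higher, while 40.7% of all tested genes were called higher. The median difference of the list was 3.97, and 3 of the 8 passed the filter only through SMC-TAZ4SA libraries. Fn1, the fibronectin gene, was at 1041 ± 188 FPKM in SMC-TAZ4SA cells and 10.8 ± 0.848 FPKM in SMC-Ctrl cells (SD, n = 3 each). The perlecan gene Hspg2 was at 72.8 ± 21.1 FPKM in SMC-TAZ4SA cells and 0.242 ± 0.0200 FPKM in SMC-Ctrl cells, and the growth factor gene Pdgfb at 47.4 ± 2.31 FPKM in SMC-TAZ4SA cells and 1.34 ± 0.339 FPKM in SMC-Ctrl cells. For Fn1 and Hspg2, SMC-TAZ4SA replicate 1 was the lowest of its group, at 823 and 48.5 FPKM. Gja1, which encodes connexin 43, was at 16.9 ± 0.208 FPKM in SMC-TAZ4SA cells and listed at 0 in SMC-Ctrl libraries. Of 12 proteases that cleave CCN proteins, 4 were tested and all 4 were higher, with a median difference of 3.46 against 0.02 over all tested genes. Mmp14, a membrane-bound metalloprotease gene, and Mmp9, a gelatinase gene, differed by 4.82 and 1.48 on the log2(FPKM + 1) scale, and both passed the filter only through SMC-TAZ4SA libraries, which built the direction into their selection. Plau and Plat, which encode plasminogen activators, were higher by 3.64 and 3.27.

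Set beside 20 other known YAP/TAZ target genes, Ctgf and Cyr61 were at the upper end. All 20 were tested, 16 were higher and 2 lower, and for 2 the test was not passed. The median difference was 2.48, and 10 passed the filter only through SMC-TAZ4SA libraries. For comparison, 40.7% of all tested genes were called higher and 39.7% lower. Ankrd1, a nuclear ankyrin-repeat protein gene, was at 323 ± 24.7 FPKM in SMC-TAZ4SA cells, and the receptor kinase gene Axl and the matrix protein gene Ccdc80 were at 113 ± 3.51 and 109 ± 9.40 FPKM (SD, n = 3 each), each listed at 0 in SMC-Ctrl libraries. Tgfb2, a TGF-beta ligand gene, was at 58.8 ± 2.02 FPKM in SMC-TAZ4SA cells and 0.101 ± 0.0243 FPKM in SMC-Ctrl cells. The 2 that fell were Nt5e, which encodes the ectonucleotidase CD73 (difference -1.13), and Nuak2 (difference -0.19, adjusted p = 0.0424), which lost its call without any 1 of the SMC-TAZ4SA libraries (0.0693 to 0.0731), without SMC-Ctrl replicate 1 (0.137) and without SMC-Ctrl replicate 2 (0.140). No other gene of that list exceeded Ankrd1, whose difference of 8.34 was below those of Cyr61 and Ctgf.

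**Figure D4:**
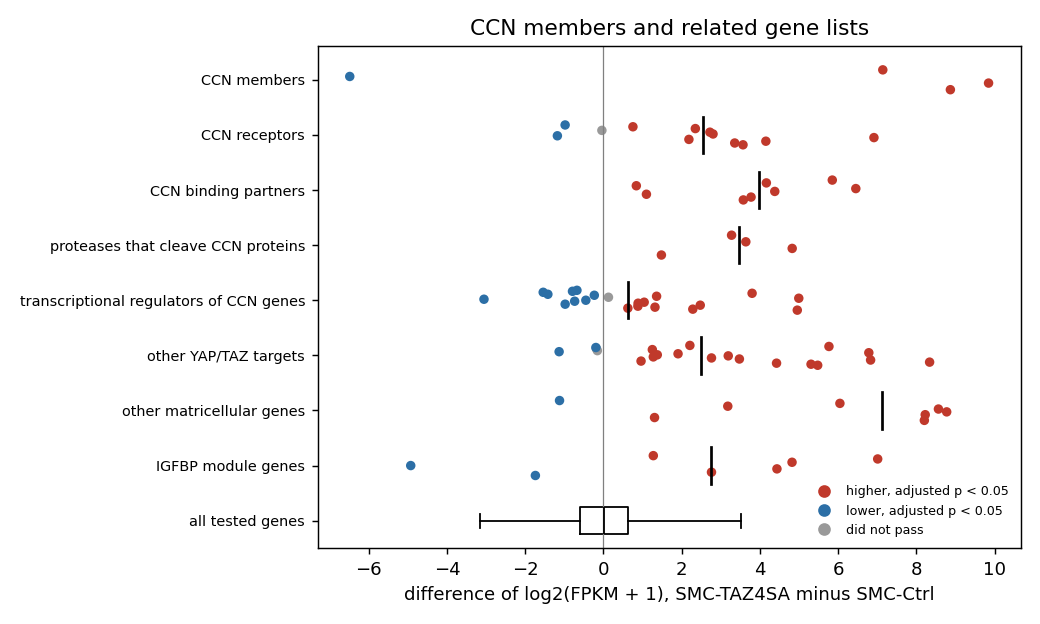
Difference of log2(FPKM + 1), SMC-TAZ4SA minus SMC-Ctrl, of each tested gene (points) of the CCN members and 7 related lists, with the list's median as a black bar except for the members; the box at the bottom gives the quartiles of all 12141 tested genes and its whiskers the central 95% of them. Ctgf, at 9.84, lies to the right of every other point, and Nov, at -6.49, to the left of every other point.

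Other matricellular genes, which encode matrix proteins with a regulatory role, numbered 16, of which 8 were tested: 7 were higher and 1 lower. Their median difference was 7.12, and 5 passed the filter only through SMC-TAZ4SA libraries. Among all tested genes, 40.7% were called higher and 39.7% lower. Thbs1, the thrombospondin-1 gene, was at 741 ± 83.1 FPKM in SMC-TAZ4SA cells and 1.51 ± 0.0264 FPKM in SMC-Ctrl cells (SD, n = 3 each). Sparc, Spp1 (osteopontin) and Tnc (tenascin C) were at 454 ± 33.1, 385 ± 25.4 and 300.2 ± 36.0 FPKM in SMC-TAZ4SA cells, and each averaged under 0.05 FPKM in SMC-Ctrl cells. Smoc2, a calcium-binding matrix protein gene, was at 9.40 ± 0.907 FPKM in SMC-TAZ4SA cells and 21.7 ± 2.18 FPKM in SMC-Ctrl cells.

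Marker genes of other cell types were read beside the CCN genes, with 40.7% of all tested genes called higher and 39.7% called lower. Of 10 fibroblast markers, 6 were tested and all 6 were higher (Pdgfrb, Col1a1, Col1a2, Col3a1, Thy1 and Postn), and the summed level of the list was 359 to 407 FPKM in SMC-TAZ4SA libraries and 1.76 to 2.12 FPKM in SMC-Ctrl libraries. Of the 6, 5 passed the filter only through SMC-TAZ4SA libraries, so that they were higher was built into their selection. The fibroblast markers Dcn, Lum, Pdgfra and Fap stayed under 1 FPKM in every library. Of 6 smooth muscle and pericyte markers, Acta2, Cnn1 and Cspg4 were higher, all 3 tested only through SMC-TAZ4SA libraries, with sums of 784 to 959 FPKM in SMC-TAZ4SA libraries and 0.143 to 0.173 FPKM in SMC-Ctrl libraries, while Myh11, Rgs5 and Des stayed under 1 FPKM throughout. Acta2, at 819 ± 93.7 FPKM, made up most of that SMC-TAZ4SA sum. Of 10 endothelial markers, Pecam1, Cdh5, Tek, Tie1, Emcn and Cldn5 stayed under 1 FPKM, Kdr, Egfl7 and Flt1 were higher and Vwf, the von Willebrand factor gene, was lower, with sums of 10.0 to 11.5 FPKM in SMC-TAZ4SA libraries and 30.5 to 35.3 FPKM in SMC-Ctrl libraries. Vwf, at 31.0 ± 2.26 FPKM, made up most of that SMC-Ctrl sum. Of the 9 leukocyte markers in the table, Ptprc and 6 others stayed under 1 FPKM, Csf1r was higher and Cd68 did not pass, with sums of 3.89 to 4.67 FPKM in SMC-TAZ4SA libraries and 1.15 to 1.35 FPKM in SMC-Ctrl libraries. Kdr, Flt1 and Csf1r passed the filter only through SMC-TAZ4SA libraries and Vwf only through SMC-Ctrl libraries.

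Most of the neuroendocrine markers were lower in SMC-TAZ4SA cells, as Nov was. Of 9 such genes, 8 were tested, of which 7 were lower (Chga, Insm1, Syp, Uchl1, Calca, Epcam and Neurod1) and 1, Ncam1, was higher, and Dll3 stayed under 1 FPKM. Of all tested genes 39.7% were called lower, and 3 of the 8 markers passed the filter only through SMC-Ctrl libraries, which fixed their direction. The summed level of the list was 320 to 389 FPKM in SMC-TAZ4SA libraries and 1045 to 1168 FPKM in SMC-Ctrl libraries. Most of the SMC-TAZ4SA sum was Uchl1 (152 FPKM), Epcam (115 FPKM) and Ncam1. Insm1 averaged 1.18 FPKM in SMC-TAZ4SA cells, and Chga, Syp, Calca and Neurod1 averaged less. Ncam1 was at 78.5 ± 4.97 FPKM in SMC-TAZ4SA cells and 21.4 ± 1.18 FPKM in SMC-Ctrl cells (SD, n = 3 each), which goes against the direction of the others. By western blot, the study reports lower NCAM protein in SMC cells with TAZ4SA, whereas the values here are RNA. The part of these marker genes' differences in the CCN levels was not tested.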

How the data were processed

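RNA-seq of 6 libraries of cultured mouse SCLC cells was analysed, 3 SMC-TAZ4SA and 3 SMC-Ctrl, grouped by their sample titles. The authors deposited FPKM values per gene symbol. The submitters' processing notes name STAR 2.6 and mm10; for the FPKM tool, annotation and strand setting, the sources used here name none. The study names a count-based test, but the values used are FPKM, so limma 3.58.1 (R 4.3.3) was fitted to log2(FPKM + 1) with the group as its only term and an intensity trend in the prior variance. Tests were 2-sided and p-values were adjusted by Benjamini-Hochberg across the genes tested, and 0.05 was the threshold. Fold changes on this scale understate the change of low genes. The fit took genes with 1 FPKM or more in 3 or more of the 6 libraries and a symbol on 1 line, which left out 254 symbols on several lines. The code was tested on simulated data. No unmapped sample column was present.

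FPKM holds no total counts. Relative depth was taken from the steps of the low values under 0.3 FPKM, and no counting interval is given. The members and the gene lists were chosen with earlier results of these data known. All 5 members and Wisp3 are named; for each tested one, the 5 genes nearest in profile; in each list, up to 4 called genes with the largest difference and up to 2 called in the other direction, with Wwtr1, Yap1 and Tead1 to Tead4 always; markers at 1 FPKM or more in a library; and the nearest protein-coding gene on each side. Names outside this rule (Lrp6, Smad2, Tube1, Itgb1 and markers under 1 FPKM) were chosen after their values were seen. Alternatives were other pseudocounts (0.1 and 0.01), filters and scalings, no trend, a replicate block and each library left out. Gene positions came from GENCODE and promoters from RefSeq. Protein sequences were not analysed here, and a few genes that the naming rule would give, 1 of them a neuroendocrine marker left out of that list's counts and sums, are not reported here.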

Additional observations from a re-analysis of the deposited data

How the results depend on the processing

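The 74 alternative values of the 5 tested family genes kept the direction and the call of the main one. The difference of log2(FPKM + pseudocount) ranged over 9.74 to 15.4 for Ctgf, 8.74 to 11.1 for Cyr61, 7.04 to 13.8 for Wisp1, -7.78 to -6.46 for Nov and -4.40 to -1.20 for Wisp3, with the far ends at a pseudocount of 0.01. With each library left out in turn, the ranges were 9.82 to 9.87 for Ctgf, 8.79 to 8.93 for Cyr61, 7.11 to 7.18 for Wisp1, -6.50 to -6.46 for Nov and -1.22 to -1.20 for Wisp3. Over these fits 9111 to 10150 genes were called, the most without SMC-TAZ4SA replicate 1. Wisp3 could not be tested under a filter of a mean of 1 FPKM. Scaling all libraries to the same total moved the median difference of all tested genes to -0.18, against 0.02, and the split of calls to 3984 higher and 5883 lower, against 4939 and 4815; relative to that shift the family differences stand as given. Same-numbered libraries had correlations of deviations of -0.250, -0.0599 and -0.307, and differently numbered ones -0.296 to 0.389. Deviations from a group mean cancel within the group, so these values cannot show whether the replicate numbers pair the libraries. With the number as a replicate block, 9350 genes were called in place of 9754, and Cyr61, Ctgf, Nov, Wisp1 and Wisp3 had adjusted p values (limma) of 1.10e-08, 1.08e-08, 1.59e-08, 1.39e-08 and 2.05e-06. Among other named genes, 1032 alternative values kept their call, 9 lost it (Nuak2, with adjusted p of 0.0518 to 0.140, and Fam229b without SMC-Ctrl replicate 1 or 3, at 0.0722 and 0.0636) and 3 gained it (Ada, at 0.0302 to 0.0463). Low values limit Wisp2, and Ctgf in SMC-Ctrl cells, to a few fragments. Wisp3 was also low in SMC-TAZ4SA cells, and its fragment steps were not worked out.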

Other observations

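The IGFBP module, the N-terminal part of a CCN protein, is shared with the insulin-like growth factor binding proteins, which bind IGF ligands. Of 12 other genes with this module, 7 were tested, of which 5 were higher and 2 lower in SMC-TAZ4SA cells, with a median difference of 2.76 on the log2(FPKM + 1) scale against 0.02 over all tested genes; 3 of the 7 passed the filter only through SMC-TAZ4SA libraries. Igfbp5 was at 6.57, 8.41 and 7.83 FPKM in SMC-TAZ4SA libraries, against 274, 254 and 252 FPKM in SMC-Ctrl libraries, a difference of -4.93. Igfbp2 was at 14.7 ± 2.37 FPKM in SMC-TAZ4SA cells and 51.0 ± 3.65 FPKM in SMC-Ctrl cells (SD, n = 3 each). Htra1, Igfbp7 and Igfbp4 rose, by 7.01, 4.82 and 4.43. With 40.7% of all tested genes called higher and 39.7% lower, members in both directions are not particular to this module. The most abundant gene of the list was Igfbp5 in SMC-Ctrl cells and Htra1, at 129 ± 12.2 FPKM, in SMC-TAZ4SA cells.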
